A study of Homo sapiens with 8 samples.

Results

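The HOX gene clusters were examined as 38 member genes, 10 in HOXA, 10 in HOXB, 9 in HOXC and 9 in HOXD, of 20176 protein-coding genes in the annotation. H3K27ac, the acetylated histone H3 that marks active promoters and enhancers, was mapped by ChIP-seq. The cells were A549, which were grown from a human lung adenocarcinoma and in which the NRF2 pathway is active without added stress. The libraries were 3 of cells given control siRNA and 3 of cells given NRF2 siRNA, all from cells harvested 48 hours after transfection and grown in the same medium. NRF2 siRNA 28 was used in replicate 1 and NRF2 siRNA 30 in replicates 2 and 3, so the siRNA and the replicate cannot be told apart. The study describes its ChIP-seq replicates as independent experiments, and the p-values measure the spread between these libraries. H3K27ac cannot show whether NRF2 was depleted. The start of NFE2L2, which encodes NRF2, was under a peak in all 6 libraries.

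Peaks of the 6 lists were merged wherever they overlapped by 1 base, which gave 49186 regions, and 34 of them lay in a member gene or within 5 kb of one. HOXA held 9 of these regions, HOXB 13, HOXC 9 and HOXD 3. The lists held 23885 to 41571 peaks, of which 14 to 32 per library lay over the HOX clusters. Within a list, a peak is described by the percentile of its fold enrichment, where 100 is the most enriched peak. Starts are those of the Ensembl canonical transcript unless the gene record is named, which begins at the outermost annotated start. The keratin genes KRT8 and KRT18, epithelial markers, had their canonical starts under a peak in all 6 libraries, CDH1 in 3 and KRT19 in none. EPCAM was called in none at its canonical start and in all 6 at the start of its gene record. None of the 5 lung alveolar markers, NKX2-1 and the surfactant genes among them, and none of the 8 measured markers of other cell types had its canonical start under a peak in any library.

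HOX genes encode homeodomain transcription factors that give cells their position along the body axis. In each cluster the genes are read in the same direction, and the low-numbered genes at the 3′ end act in anterior tissues and the high-numbered genes at the 5′ end in posterior tissues. Polycomb complexes keep unused HOX genes silent with methyl groups on H3 lysine 27, the residue that carries the acetyl group measured here. HOX genes stay on in many adult tissues, and HOXA5 is needed for the lung and trachea to form.

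The clusters also carry microRNAs that repress HOX messenger RNAs, miR-196 between paralog groups 9 and 10 and miR-10 next to paralog group 4. Their mature sequences from RefSeq (GRCh38.p14) are shown because these genes lie inside the clusters described here. Capitals mark the seed, bases 2 to 8.
miR-196a-5p: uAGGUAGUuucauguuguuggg
miR-196b-5p: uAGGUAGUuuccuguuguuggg
miR-10a-5p: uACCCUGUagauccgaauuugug
miR-615-3p: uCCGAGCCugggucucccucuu
miR-196a-5p, made from MIR196A1 in HOXB and MIR196A2 in HOXC, and miR-196b-5p, made from MIR196B in HOXA, share 1 seed. The hairpins of MIR196A1, MIR196A2, MIR196B, MIR10A, MIR10B and MIR615 were placed in hg19 by exact match, and none of the 6 lay under a peak in any library. The nearest merged region was 438 bases from MIR615, which lies in HOXC, 2989 bases from MIR196B and 9052 bases from MIR10B.

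The promoter of HOXA5 is shown because this lung gene had its canonical start under a peak in 4 of 6 libraries, 1 with control siRNA and 3 with NRF2 siRNA. The line gives the 250 bases before the start of the Ensembl canonical transcript, in hg19.
HOXA5 (chr7:27183301-27183550, minus strand): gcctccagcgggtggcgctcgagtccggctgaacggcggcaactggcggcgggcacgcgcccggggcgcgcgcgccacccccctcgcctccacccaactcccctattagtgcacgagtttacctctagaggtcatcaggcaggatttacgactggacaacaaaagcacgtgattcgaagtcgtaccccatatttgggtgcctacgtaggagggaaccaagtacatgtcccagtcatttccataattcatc
The stretch held 22 CpG and a GC content of 60%. On both strands it held no match to the CCAAT box, to the TATA box (TATAAA), to a HOX-PBX site (TGATNNAT) or to the core bound by NRF2 with a MAF protein (TGACNNNGC). CCAAT, which occurred in 34.2% of 19818 coding promoters of this length, was in 28 of the 38 members. TGACNNNGC occurred in 11.4% of coding promoters and in 6 members, TATAAA in 9.28% and in 6 members, and TGATNNAT in 4.17% and in 6 members. A match is a description of the letters and not a binding site, and no match says only that these letters are not in this window.
Among the other genes of paralog group 5, HOXC5 had its canonical start under a peak in 4 of 6 libraries and HOXB5 in none.

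Acetylation over the HOX clusters was concentrated in a few blocks. A peak lay within 5 kb of 14 of the 38 members in all 6 libraries, where 52% of coding genes had one, and within 5 kb of 6 members in no library, where 25.3% of coding genes had none. The 14 were HOXA2, HOXA3, HOXA4, HOXA5, HOXA6, HOXA7, HOXB3, HOXB6, HOXB7, HOXB8, HOXC4, HOXC6, HOXC8 and HOXC9. The 6 were HOXA13, HOXC12, HOXD1, HOXD4, HOXD10 and HOXD11. The other 18 were reached in 1 to 5 libraries. Neighbouring members can share a region, as HOXC4, HOXC6 and HOXC8 do (chr12:54409839-54413732), so the members are not independent of each other. The map of peaks across the clusters shows these blocks.

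**Figure D1:**
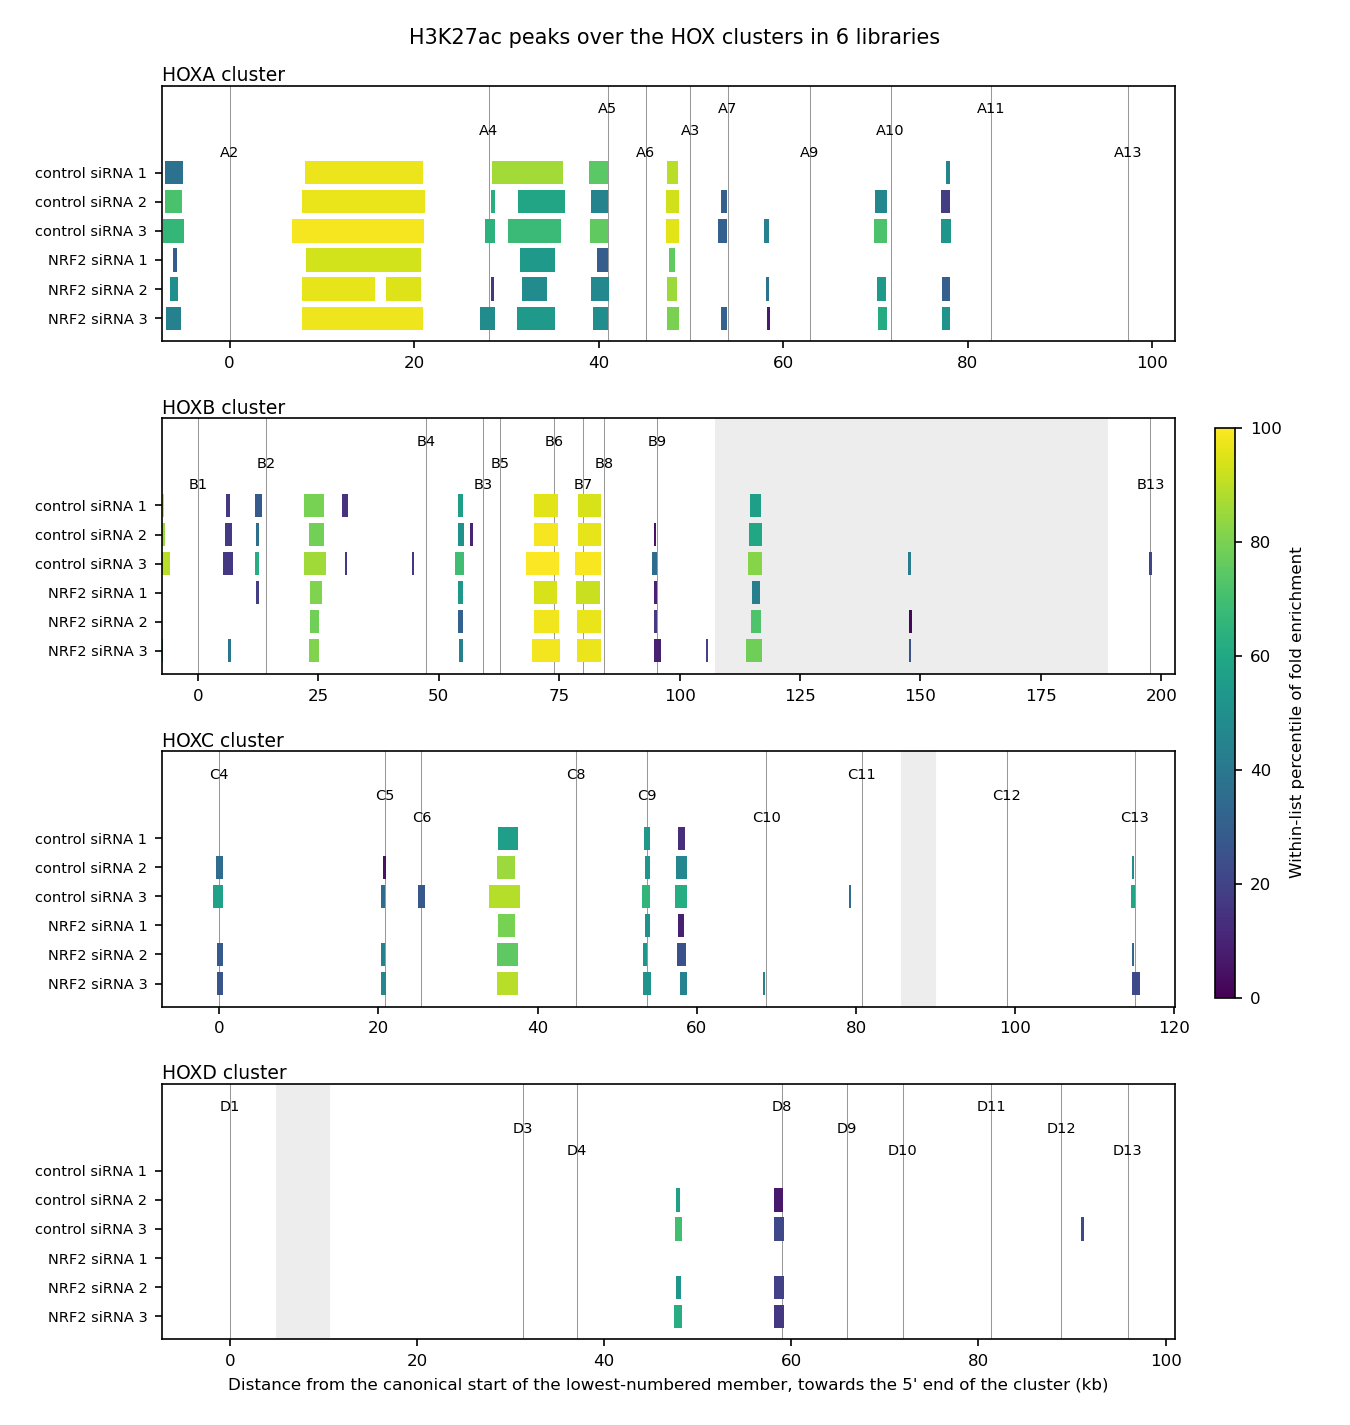
H3K27ac peaks in each of the 6 libraries (rows) over the 4 clusters, by distance in kb from the canonical start of the lowest-numbered member towards the 5′ end, with vertical lines at member starts, grey shading between gene windows, and colour for the percentile of fold enrichment within the list. The highest-ranked blocks lie 3′ of HOXA4 and at HOXB6 and HOXB7, the block 3′ of HOXA4 is the widest, and HOXD has no peak in either replicate 1 library. Peaks are cut at the outer edges of the clusters.

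Few member starts were acetylated. The canonical start was under a peak in all 6 libraries for 3 of the 38 members, HOXB6, HOXB7 and HOXC9, where 24% of coding genes were called in all 6. It was under a peak in no library for 26 members, where 47.4% of coding genes were called in none. The remaining 9 were HOXA5, HOXC4, HOXC5 and HOXD8 in 4 libraries, HOXA4 and HOXC13 in 2, and HOXB9, HOXB13 and HOXC6 in 1. Gene records of several members begin at a distant alternative start. Counted there, 4 members were called in all 6 libraries, HOXA6, HOXB3, HOXB6 and HOXC4, where 22.5% of coding genes were. The record starts of HOXB3 and HOXB6 lie under the same region (chr17:46676563-46683517), so the HOXB3 call is not separate from the HOXB6 call.

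By position along the cluster, none of the 7 anterior members (paralog groups 1 to 3) had its canonical start called in any library. Of the 15 central members (groups 4 to 8), 2 were called in all 6 libraries and 6 more in some. Of the 16 posterior members (groups 9 to 13), 1 was called in all 6, HOXC9, and 12 in none. HOXA13 and HOXD13, which pattern digits and the genital tract, and HOXA9, a factor of blood stem cells, were among those 12. HOXB13, a prostate factor, was called only in control siRNA replicate 3, the longest list.

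The uncalled promoters were not poor in CpG. Within 500 bases of the canonical start, the observed-over-expected CpG ratio had a median of 0.751 in the 12 members called in at least 1 library and 0.796 in the 26 called in none. Over all 19818 coding genes measured the median was 0.726. HOXB6, called in 6 libraries, had a ratio of 0.376, while HOXD11, called in none, had 1.00. HOXD promoters had the highest median of the 4 clusters, 0.879.

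**Figure D2:**
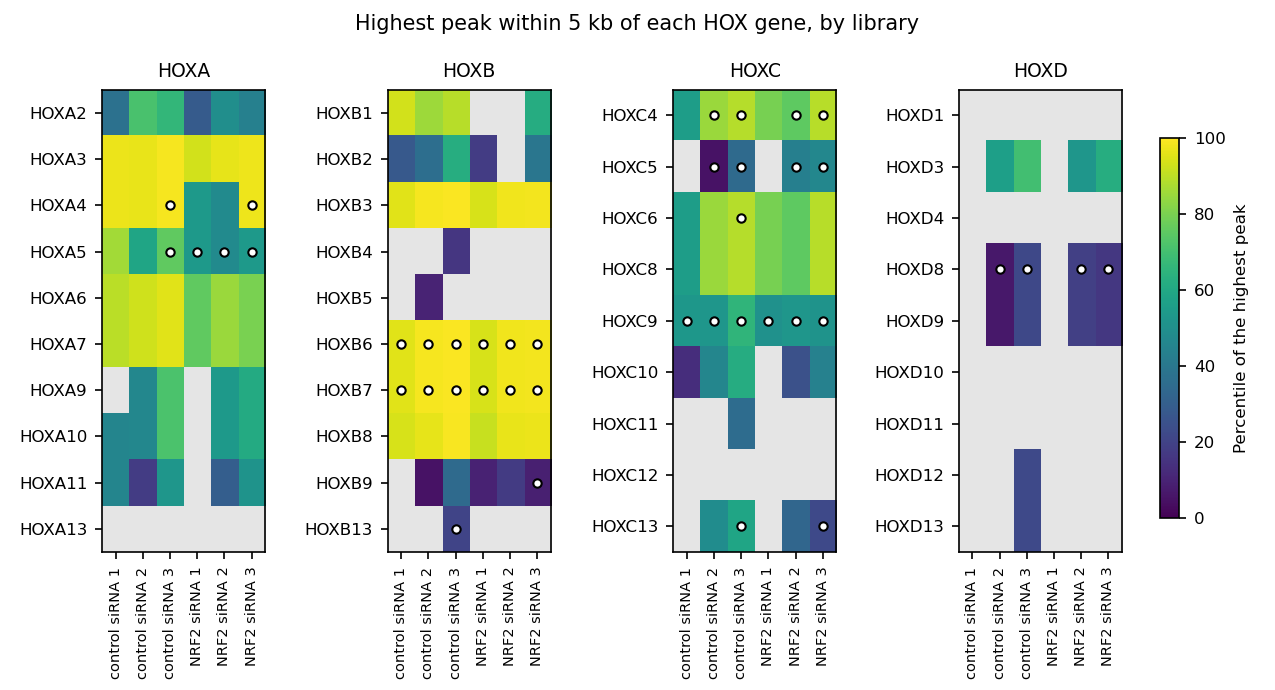
For each member (rows, by cluster) and library (columns), colour gives the percentile of the highest peak within 5 kb of the gene, grey marks no peak, and a white dot marks a canonical start under a peak. HOXB6, HOXB7 and HOXC9 carry dots in all 6 libraries, and HOXD1, HOXD4, HOXD10 and HOXD11 are grey throughout.

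In HOXA, the 3′ end was the active end. The cluster was cut into 3 segments of 36.6 kb. Peaks covered 41.5% of the 3′ segment, 22.6% of the middle segment and 4.11% of the 5′ segment, as means over the 6 libraries. Most of the 3′ coverage came from 1 broad domain at chr7:27149103-27163451, of which 92.8% is HOXA3 intron in the annotation. HOXA3 acts in the pharyngeal organs. Its widths were 12.7, 13.3 and 14.3 kb with control siRNA and 12.5, 11.8 and 13.1 kb with NRF2 siRNA, where in NRF2 siRNA replicate 2 it was split into 2 peaks. It ranked at percentiles 97.2, 96.7 and 98.8 with control siRNA and 93.3, 96.2 and 97.4 with NRF2 siRNA. The domain was thus near the top of every list, and the groups overlapped. The widest HOXA peak exceeded 95.9% to 99.3% of the peaks of its own list in width.

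Next to it, a region over the HOXA4 start (chr7:27169486-27178684) and one at the HOXA5 start (chr7:27181254-27183409) were called in all 6 libraries, with peaks that covered the start itself in 2 and 4 of them. The HOXA4 region ranked at percentiles 86.0, 63.0 and 67.9 with control siRNA and 54.0, 47.7 and 54.0 with NRF2 siRNA, so that its percentiles were apart. Beyond HOXA7 the calls thinned out. The region 351 bases from the HOXA10 canonical start, inside HOXA10 and HOXA9, was called in 2 control and 2 NRF2 siRNA libraries. HOXA11, which acts in the uterus and limb, had its nearest region 4358 bases from its start, and HOXA13 19217 bases from its start.

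In HOXB, the middle was the active part. Over 3 segments of 70.1 kb, peaks covered 9.14% of the 3′ segment, 19.5% of the middle and 0.52% of the 5′ segment. The 5′ segment includes the long interval between HOXB9 and HOXB13. The region over the HOXB6 start (chr17:46676563-46683517) ranked at percentiles 95.4, 98.6 and 99.4 with control siRNA and 94.0, 97.7 and 98.4 with NRF2 siRNA. The region over the HOXB7 start (chr17:46686536-46692061), which ends 593 bases from the HOXB8 start, ranked at 93.8, 96.4 and 98.9 with control siRNA and 91.8, 96.8 and 97.1 with NRF2 siRNA. Both were near the top of each list, and the groups overlapped. Between them and HOXB4, the neighbours HOXB4 and HOXB5 had a peak within 5 kb in 1 library each. The interval between HOXB4 and HOXB5 was not bare. A region there (chr17:46661744-46663588) was called in all 6 libraries, at percentiles 30.6 to 69.5. It lay outside the 5 kb windows of both genes and so is not in their counts. HOXB5 acts in lung branching.

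In HOXC, peaks were fewer and ranked lower. Peaks covered 9.72% of the middle segment, 3.54% of the 3′ segment and 0.862% of the 5′ segment of 42.4 kb each. The highest-ranked HOXC region (chr12:54409839-54413732) lies in HOXC4 and HOXC6 between the starts of HOXC8 and HOXC6. It ranked at percentiles 55.5, 84.8 and 88.9 with control siRNA and 79.4, 75.3 and 89.3 with NRF2 siRNA. The region at the HOXC9 start (chr12:54393389-54394519) ranked at 53.0, 52.41 and 65.3 with control siRNA and 50.5, 52.38 and 51.2 with NRF2 siRNA. In the first region the groups overlapped. At the HOXC9 start the lowest control percentile, 52.41, was just above the highest with NRF2 siRNA, 52.38, while the rank scores defined further on overlapped. HOXC13, a hair and nail factor, had a region at its start in 2 control and 2 NRF2 siRNA libraries, and HOXC12 had none within 5 kb.

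HOXD was nearly without H3K27ac. Neither replicate 1 library had a peak in HOXD. The highest-ranked region (chr2:177005029-177005979), in a HOXD3 intron, ranked at 56.4 and 69.9 in control siRNA replicates 2 and 3 and at 52.7 and 62.1 in the matching NRF2 siRNA libraries. The only member start called was that of HOXD8, at percentiles 6.31 and 21.8 with control siRNA and 19.0 and 16.2 with NRF2 siRNA in those same replicates. The replicate 1 lists were the 2 shortest, 27941 peaks with control siRNA and 23885 with NRF2 siRNA. By the study's reporting summary, both replicate 1 libraries also had fewer mapped reads than those of replicates 2 and 3. The part of list length and of read depth in the missing HOXD calls was not tested.

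Whether NRF2 siRNA changed these blocks was asked next. The length under peaks summed over the 4 clusters was 48.8, 51.6 and 68.3 kb with control siRNA and 36.4, 42.0 and 51.6 kb with NRF2 siRNA. The means were 56.2 ± 10.6 kb and 43.3 ± 7.66 kb (SD, n = 3 each), a difference of -22.9%. The groups overlapped, since control siRNA replicate 1 lay below NRF2 siRNA replicate 3, while each NRF2 siRNA library lay below the control of its number, by 12.3, 9.61 and 16.8 kb. The covered length of the whole lists was lower as well, on average 78.9 Mb against 87.7 Mb, and was lower in each NRF2 siRNA library than in the control of its number. Per Mb of covered length in the whole list, the HOX length was 0.754, 0.608 and 0.603 kb with control siRNA and 0.786, 0.496 and 0.488 kb with NRF2 siRNA, a difference of -9.87% in the means. On that scale pair 1 was higher with NRF2 siRNA and pairs 2 and 3 lower. No test was made on these summed lengths.

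By cluster, the covered length in HOXA was 25.8, 26.98 and 30.8 kb with control siRNA and 18.7, 21.0 and 26.3 kb with NRF2 siRNA. In HOXB it was 18.7, 17.6 and 25.6 kb with control siRNA and 14.3, 13.5 and 16.4 kb with NRF2 siRNA, so that the HOXB groups did not overlap. Per Mb of the whole list, HOXB held 0.289, 0.207 and 0.226 kb with control siRNA and 0.310, 0.160 and 0.155 kb with NRF2 siRNA, where the groups overlapped, pair 1 was higher with NRF2 siRNA, and the difference in means was -13.4%, against -28.4% for the length itself. In HOXC the means were 6.60 ± 2.88 kb and 5.38 ± 1.81 kb (SD, n = 3 each), and in HOXD 1.14 ± 1.06 kb and 1.19 ± 1.03 kb (SD, n = 3 each). The plot of covered length by cluster shows the values of all libraries.

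**Figure D3:**
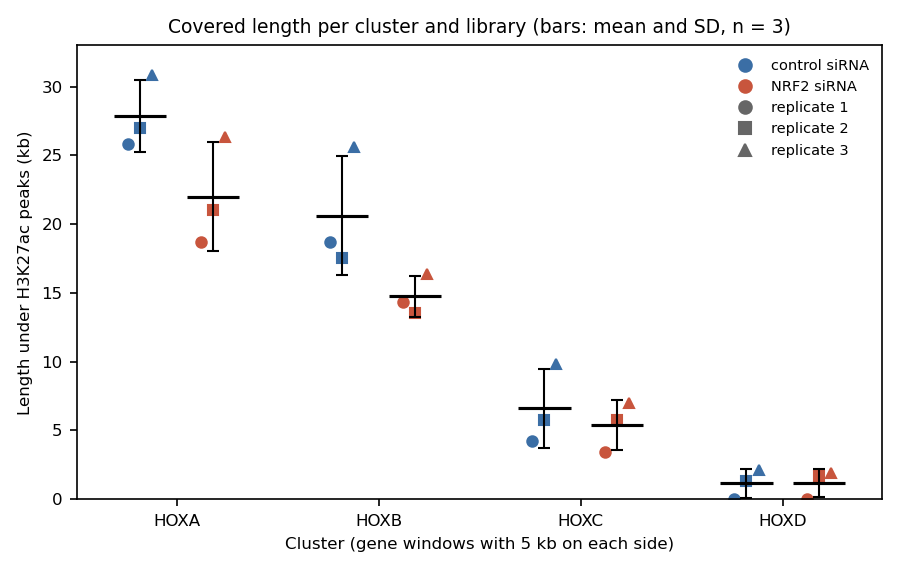
Length under H3K27ac peaks in kb (y axis) in each cluster (x axis), with 1 point per library, marker shape for the replicate, and mean and SD bars (n = 3). In HOXB the 3 NRF2 siRNA libraries lie below the 3 control libraries, and in HOXC and HOXD the groups overlap.

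The separation of the HOXB groups came from the 3′ end. The 3′ segment of HOXB, from HOXB1 to HOXB4, was covered over 9.07, 7.42 and 11.5 kb with control siRNA and 3.92, 2.84 and 3.66 kb with NRF2 siRNA. The middle segment, from HOXB5 to HOXB9, was covered over 11.9, 12.7 and 16.3 kb with control siRNA and 12.3, 12.9 and 16.0 kb with NRF2 siRNA. The groups were apart in the 3′ segment and overlapped in the middle segment. The segments were compared by their values, with no test of the difference between them.

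At the start of the gene record, 4, 7 and 11 members were called with control siRNA and 5, 8 and 11 with NRF2 siRNA. At the canonical start the numbers were 3, 6 and 11 with control siRNA and 4, 7 and 10 with NRF2 siRNA. Both counts rose with the length of the list in either group. Counting any transcript start gave 10, 14 and 18 with control siRNA and 10, 12 and 16 with NRF2 siRNA, so the sign of the mean difference depends on which start is counted.

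Single regions were compared by rank score, the normal score of a region's rank by fold enrichment within its library, tested with limma over all 32673 regions called in at least 3 of 6 libraries. At an adjusted p under 0.05, limma called 1108 regions lower with NRF2 siRNA (3.39%) and 657 higher (2.01%). Of the 25 HOX regions tested, 0 were called lower and 0 higher, and the lowest adjusted p from limma was 0.0784. At an unadjusted p under 0.05 there were 4 of the 25, against 7361 of 32673 over all regions. The score was lower with NRF2 siRNA in 19 of the 25 HOX regions, against 15850 of 32673 over all regions, with median differences of -0.21 and 0.02. The groups did not overlap in 2 HOX regions, both lower, where 13.6% of all regions were apart and lower and 14.6% apart and higher. On percentiles, with a region not called put below every peak, the groups were apart in 5 HOX regions, all lower, where 12.8% of all regions were apart and lower and 7.39% apart and higher. The 3 added by this scale were the HOXA4, HOXB2 and HOXC9 regions, with score differences of -0.47, -1.08 and -0.07 and adjusted p from limma of 0.411, 0.191 and 0.897. The HOXA4 and HOXC9 regions were named after their values were seen. A region that was not called shares the lowest score of its library, which depends on the length of the list, so a region uncalled in both replicate 1 libraries has a pair difference of 0.25.

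**Figure D4:**
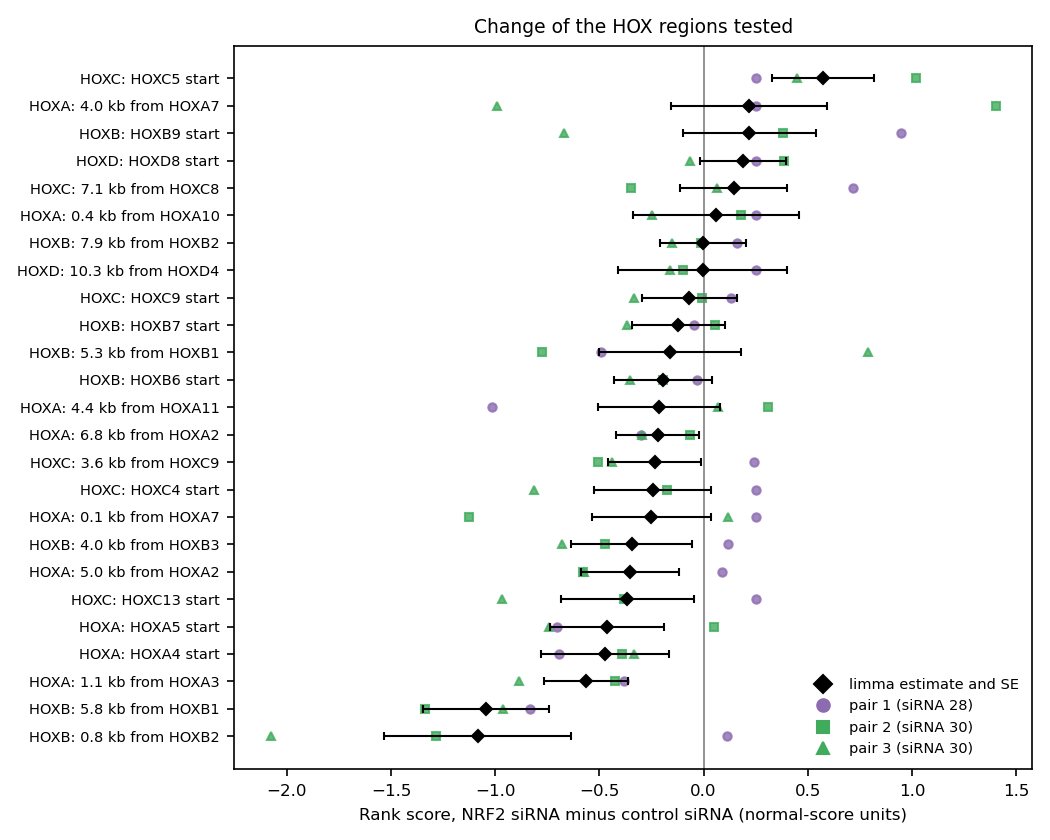
Rank score difference, NRF2 siRNA minus control siRNA, of the 25 HOX regions tested (rows, named by cluster and distance to the nearest canonical member start), with the limma estimate and SE in black and the difference within each replicate number in colour. The regions 5.8 kb from HOXB1 and 0.8 kb from HOXB2 lie lowest, near -1, and the HOXC5 start lies highest, at 0.57.

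The region with the lowest p lay 3′ of HOXB1, a hindbrain patterning gene, at chr17:46593629-46602563, outside any coding gene. Its percentiles were 93.3, 85.2 and 89.3 with control siRNA and 66.2, 37.98 and 61.9 with NRF2 siRNA. Its peak was 7.50, 7.01 and 8.94 kb wide with control siRNA and 2.83, 2.73 and 3.88 kb wide with NRF2 siRNA. The groups were apart in both measures, and every pair fell. The score difference was -1.04 (SE 0.30, n = 3 each), with an adjusted p from limma of 0.0784. Blocked by replicate number, the fit gave an adjusted p from limma of 0.0158, and with siRNA 30 alone (replicates 2 and 3) it was 0.0295, at differences of -1.04 and -1.07. With no minimum number of libraries called, the adjusted p from limma was 0.114. It was 0.0254 without NRF2 siRNA replicate 1 and 0.179 to 0.265 with any other single library left out. The differences in these leave-out fits were -1.34 to -0.82. The region enters only through the 5 kb added to HOXB1: it ends 5810 bases from the HOXB1 start, and with NRF2 siRNA the peaks of replicates 1 and 2 no longer reached within 5 kb of the gene.

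The other region whose rank scores were apart lay inside HOXA, at chr7:27189641-27191058, 1144 bases from the HOXA3 canonical start and over the distal start of HOXA6. It ranked at percentiles 89.5, 92.8 and 95.7 with control siRNA and 75.6, 85.0 and 79.8 with NRF2 siRNA. The score difference was -0.56 (SE 0.20, n = 3 each), with an adjusted p from limma of 0.135. The 300 bases at the centre of the stretch that lay under a peak in all 6 libraries (hg19, plus strand) are given, since the groups were apart here, with matches to CCAAT and to the core motif of the insulator protein CTCF in capitals.
HOXA6 distal start (chr7:27190063-27190362): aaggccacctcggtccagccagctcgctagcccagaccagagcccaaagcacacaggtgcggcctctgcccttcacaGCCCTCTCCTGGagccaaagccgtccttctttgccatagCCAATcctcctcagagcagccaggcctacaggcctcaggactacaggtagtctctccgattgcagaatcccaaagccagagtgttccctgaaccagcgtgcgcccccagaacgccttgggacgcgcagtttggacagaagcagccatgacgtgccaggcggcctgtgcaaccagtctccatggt
The CTCF core motif occurred in 1.77% of 15409 regions taken in the same way and, of the 12 HOX regions measured, in this one. Over the whole length of the 34 merged HOX regions it occurred in 7. No share over all regions was measured at whole length, so this count has no background to be read against.

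The third of the largest falls lay 777 bases from the start of HOXB2, another hindbrain gene, at chr17:46620201-46621694. It was called at percentiles 27.7, 36.2 and 62.4 with control siRNA and at 17.8 in NRF2 siRNA replicate 1, and was not called in NRF2 siRNA replicates 2 and 3. The score difference was -1.08 (SE 0.45, n = 3 each), with an adjusted p from limma of 0.191. With replicates 2 and 3 alone, which share siRNA 30, the adjusted p from limma was 0.0161 at a difference of -1.62, and without NRF2 siRNA replicate 1 it was 0.00796 at -1.66. With lists of equal length the difference was -0.53 and without NRF2 siRNA replicate 3 it was -0.68, with adjusted p from limma of 0.392 and 0.471. In pair 1 the score difference was 0.11, below the median of 0.17 over all regions in that pair, and the percentile was lower with NRF2 siRNA.

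Regions called in at least 2 more libraries of one group were 3, all in HOXB and all with more control libraries, of 34 HOX regions. Of all regions, 7.16% were called in at least 2 more control libraries and 5.26% in at least 2 more NRF2 siRNA libraries. They were the HOXB2 region, a region 5268 bases from the HOXB1 start (chr17:46613641-46615536) and a region in a HOXB3 intron (chr17:46638314-46639470). The second was called at percentiles 15.9, 16.4 and 16.3 with control siRNA and at 39.4 in NRF2 siRNA replicate 3 only. The third was called at 14.1 and 16.1 in control siRNA replicates 1 and 3 and in no NRF2 siRNA library, and was not tested.

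**Figure D5:**
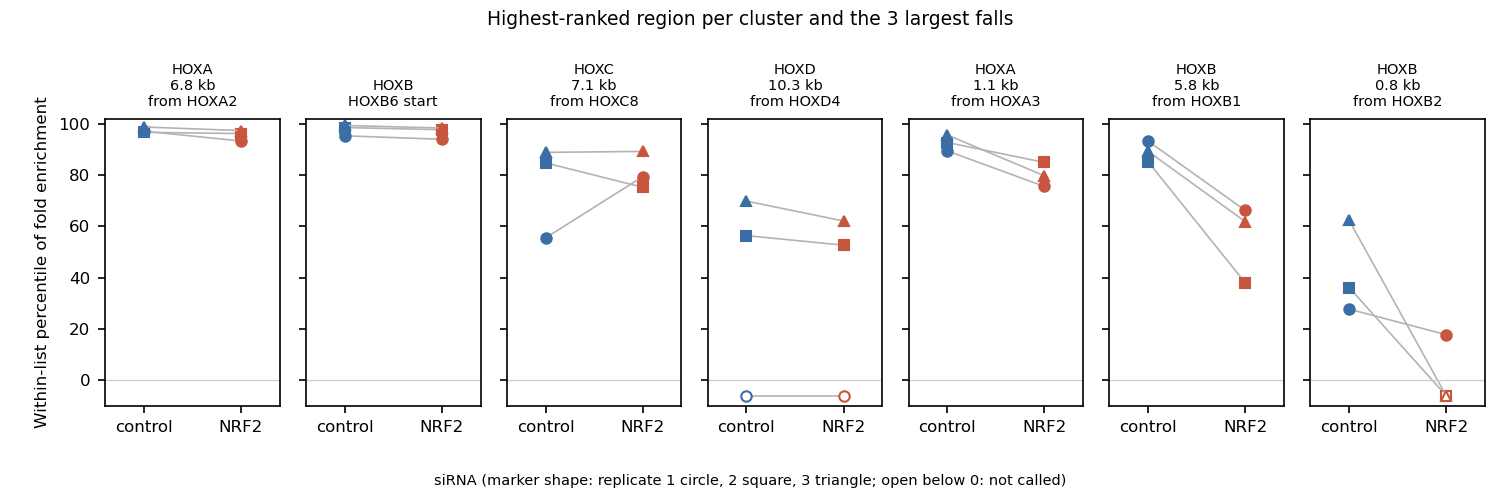
Within-list percentile of fold enrichment (y axis) with control and NRF2 siRNA for the highest-ranked region of each cluster and the 3 largest falls, with lines joining replicates of the same number and open markers below 0 for a region not called. The HOXA3 domain and the HOXB6 region lie at 93.3 or above in all 6 libraries, and the region near HOXB1 falls from 85.2 or more to 66.2 or less.

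None of the 3 largest rises passed the test. At the HOXC5 start (chr12:54426704-54427296), the percentiles were 4.82 and 34.6 in control siRNA replicates 2 and 3 and 43.3 and 46.2 in the matching NRF2 siRNA libraries. It was not called in either replicate 1 library. The score difference was 0.57 (SE 0.25, n = 3 each), with an adjusted p from limma of 0.206. The region at the HOXB9 start (chr17:46702529-46704447) and the region 3952 bases from HOXA7 (chr7:27200246-27200861) each differed by 0.22, with adjusted p from limma of 0.743 and 0.785.

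The highest-ranked regions of the clusters did not pass the test. The score differences were -0.22 (SE 0.20) for the HOXA3 domain, -0.19 (SE 0.23) for the HOXB6 region, 0.14 (SE 0.26) for the HOXC region and -0.00 (SE 0.41) for the HOXD region. Their adjusted p from limma were 0.571, 0.684, 0.796 and 0.997. Without control siRNA replicate 3 the HOXA3 and HOXB6 differences were -0.14 and -0.043, and the HOXB6 difference was -0.37 without control siRNA replicate 1.

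RNAs without a coding frame in the clusters mostly had no peak over their annotated starts. Of 21 found in the annotation, 18 had no peak over the canonical start in any library, HOTAIR, HOTTIP and HOXA11-AS among them. Of coding genes, 47.4% had none, and the share over all RNAs without a coding frame was not measured. The 18 include MIR196A1, MIR196A2, MIR196B, MIR10B and MIR615, whose records begin at the hairpin. They also include HOXC-AS2, whose start lay 235 bases from a region called in all 6 libraries. HOXC-AS1, opposite HOXC9, was called in 5 libraries, HOTAIRM1, at the 3′ end of HOXA, in 4 and HOXA-AS3 in 1. HOXB-AS1, one of the 18, was called in 4 libraries at the start of its gene record. The region at HOTAIRM1 (chr7:27135059-27137342) had a score difference of -0.35 and an adjusted p from limma of 0.419. Peaks were listed without strand, so overlapping genes and their antisense RNAs cannot be told apart.

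Of 14 genes that border the clusters and were found in the annotation, SKAP2, HIBADH and CBX5 had their starts called in all 6 libraries, MTX2 in 5 and 6 in none, EVX1 and EVX2 among them. MTX2 lies beside the HOXD cluster, and its start ranked at 64.1 to 87.6 in the libraries where it was called. None of the 5 border starts tested was called by limma in either direction.

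Genes for cofactors and regulators of HOX genes were marked in part. Of all coding genes, 24% had the canonical start called in all 6 libraries and 47.4% in none. Of 8 TALE cofactors, which bind DNA together with HOX proteins, MEIS2 had its start called in all 6 libraries and PBX4, MEIS3, PKNOX1 and PKNOX2 in none. Of 18 Polycomb genes, 7 were called in all 6, EED, PCGF2 and CBX8 among them, and EZH2, PHC2, CBX2 and CBX7 in none. Of 12 Trithorax and H3K27 demethylase genes, 6 were called in all 6, KMT2D and KDM6A among them. Of 10 upstream regulators, RARB and CTCF were called in all 6, and CDX1, CDX2, CDX4 and CYP26A1 in none. An uncalled start can still lie beside a peak. A region called in all 6 libraries lay within 1 kb of the EZH2 start, and another within 1 kb of the PKNOX1 start. The EZH2 region ranked at percentiles 60.3 to 95.7. For the other starts of these lists called in none, the nearest region called in all 6 was more than 5 kb away. In limma, 0 of 4 TALE, 0 of 13 Polycomb, 0 of 11 Trithorax and 0 of 6 regulator starts tested passed in either direction, against 3.39% lower and 2.01% higher over all regions. With so few starts and these backgrounds, a count of 0 says little about the lists.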

How the data were processed

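H3K27ac ChIP-seq lists of 6 A549 libraries (3 control siRNA, 3 NRF2 siRNA) were used. The labels list 2 input samples, which were not analysed here. Per the labels and the study's methods, the authors aligned reads to hg19 with Bowtie2 2.2.6 and called broad peaks in each library with MACS2 2.1.0.20151222. The deposited lists give for each peak a fold enrichment over background (a ratio), p- and q-values as −log10, and an integer score of 10 times the −log10 q-value. The smallest −log10 q-value per list was 1.01 to 1.02. Which background was used is not given in the sources used here. The lists hold no counts and the depth was not used here, so no interval for depth is given and values were ranked within each list.

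Peaks were merged with pandas 2.3.3 under Python 3.11.15 and kept where they overlapped a member of GENCODE v44 lifted to GRCh37 with 5 kb on each side. No peak ran past a chromosome end of GRCh37. Rank scores were fitted with limma 3.58.1 in R 4.3.3 with Benjamini-Hochberg adjustment over all regions, after a check on simulated data. Covered lengths and starts are values with no test. Values in every library are given for the highest-ranked region of each cluster, the 3 largest falls and rises, and regions called in 2 or more libraries more in one group. The members and gene lists were chosen with earlier results of these data known. ATP5G2, KIAA1715, MIR10A and PECAM1 were not found by symbol in the annotation. A cofactor gene and the sequences of some regions and promoters are not reported here.

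The replicate numbers, taken from the labels, were used to pair the libraries. Deviations of same-numbered libraries from their group means correlated at 0.40, 0.20 and 0.36 over the regions tested. For libraries of different numbers the correlations were -0.38 to 0.11. List length also rose with the replicate number in both groups, so these values alone do not show that the numbers mark paired experiments. In replicates 2 and 3, unlike replicate 1, the names of the peaks include a flow-cell code.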

Additional observations from a re-analysis of the deposited data

Results flagged for a closer look

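The 3 libraries of a group are too few for a check of single outlying libraries. In 7 HOX regions the difference within pair 1 (siRNA 28) had the opposite sign to both pairs with siRNA 30, higher in pair 1 in 6 and lower in 1. Of all regions tested, 7.63% were higher in pair 1 and lower in both others, and 8.79% the reverse. Pair 1 had a median difference of 0.17 over all regions, against 0.018 and 0.00076 for the other pairs, and 5 of the 6 differences above 0 lay below that median. The rank score difference in pair 1 was 0.089 at HOTAIRM1, -1.02 for the region 4358 bases from HOXA11, 0.11 at HOXB2, 0.16 for the region at the 3′ end of HOXB3, 0.12 for the region 4015 bases from HOXB3, 0.24 for the region 3611 bases from HOXC9 and 0.13 at the HOXC9 start. In pairs 2 and 3 the differences were -0.58 and -0.57 at HOTAIRM1, 0.31 and 0.07 for the region near HOXA11, and -1.29 and -2.08 at HOXB2. The differences between siRNAs were not tested. The siRNA, the replicate number, the flow-cell code in the peak names and the read depth, lower in replicate 1, cannot be told apart.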

How the results depend on the processing

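Of the HOX regions, 0 were called lower in the analysis as reported. Under these alternatives 1 was called: the replicate block, equal list lengths, limma's trend and robust options, and the block with equal lists, added after the data were seen (lowest adjusted p from limma 0.0158, 0.0481, 0.0198 and 0.00928). With replicates 2 and 3 only, 2 were called, and leaving out 1 library gave 0 to 2, with 2 without NRF2 siRNA replicate 1. The region 3′ of HOXB1 was called in each of these alternatives and the region at HOXB2 where 2 were. Over all regions, 4.59% to 8.81% were called lower under these alternatives, 6.49% with replicates 2 and 3 only and 4.96% without NRF2 siRNA replicate 1. No HOX region was called higher under any alternative. The block changed no other HOX call.

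The HOXB9 region turned to -0.18 and the highest-ranked HOXC region to -0.13 with replicates 2 and 3 only. Leaving out 1 library gave -0.072 to 0.67 for the HOXB9 region, -0.082 to 0.30 for the HOXC region, -0.46 to 0.31 for the HOXD region, -0.24 to 0.24 for the region near HOXA7 and -0.50 to 0.28 for the HOXB region called in 3 control libraries and 1 NRF2 siRNA library. Over the same fits the HOXA3 domain gave -0.31 to -0.14 and the HOXB6 region -0.37 to -0.043. The causes were not tested.

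The covered HOXA length differed by -21.1%, by -40.8% with peaks of at least 5-fold and by -8.94% per Mb of the whole list. For HOXD, 5-fold peaks gave -100%, since control siRNA replicate 3 held the only such peak and no other library of either group had one. Over the 4 clusters the difference was -22.9%, in the paired form (mean of the 3 within-number differences, the replicate block) by construction also -22.9%, and -30.3% to -13.7% with 1 library left out, -13.7% being without control siRNA replicate 3. In that way the HOXD value ranged from -30.2% (without control siRNA replicate 1) to 81.0% (without control siRNA replicate 3), and the HOXC value from -30.9% to 7.57% (without control siRNA replicates 1 and 3, in that order). The difference in starts called was 0.67 and turned to -0.67 with a peak within 1 kb, -1.33 with any transcript start and -0.33 with peaks of at least 5-fold, within the spread between libraries.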
